A study of Drosophila melanogaster with 6 samples.

Results

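The genes described here encode the machinery of oxidative phosphorylation, and they were read in sorted clock neurons of the adult Drosophila melanogaster brain, with and without RNA interference against Prp3. They were taken by symbol from the rows of the count files. Nuclear genes were those whose symbols start with ND-, UQCR-, ATPsyn or Sdh, or are COX4 to COX8. Mitochondrial genes were COX1, COX2, COX3, CYTB, ATP6, ATP8, ND1 to ND6 and ND4L. The rule found 94 of the 17868 listed genes, of which 81 were nuclear and 13 mitochondrial. By complex, complex I had 40 nuclear and 7 mitochondrial genes, and complex II had 7 nuclear genes and none from the mitochondrion. Complex III had 8 and 1, complex IV had 11 and 3, and complex V, the ATP synthase, had 15 and 2. The rule also took in Sdhaf3, an assembly factor of complex II and not a subunit.

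Oxidative phosphorylation is carried out in the inner mitochondrial membrane. Complexes I and II pass electrons from NADH and succinate to ubiquinone, complex III passes them on to cytochrome c, and complex IV hands them to oxygen. Complexes I, III and IV pump protons, and the ATP synthase uses the proton gradient to make ATP. The mitochondrial genome keeps a small set of hydrophobic subunits of complexes I, III, IV and V, transcribes them as long precursors that are cut into single transcripts, and adds poly(A) tails to most of them, while all subunits of complex II come from the nucleus. Neurons depend on this supply of ATP for firing and for the upkeep of synapses.

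There were 3 Prp3-RNAi libraries and 3 control libraries. Prp3-RNAi flies carried ClkGAL4, UAS-GFP-NLS and the hairpin line UAS-Prp3-RNAi BDSC#55256, and control flies, labelled wildtype, carried ClkGAL4 and UAS-GFP-NLS over a + chromosome, with no hairpin named. Both groups therefore shared the driver and the nuclear green fluorescent protein (GFP). The GFP transgene is named with and without tetR in different labels. Flies of both groups were kept for 5 days in 12 h of light and 12 h of dark and collected at zeitgeber time (ZT) 14, which is counted in hours from lights-on. Their age and sex are not given in the labels. For each library about 2000 live cells were sorted by their GFP signal and the absence of DAPI, a dye that stains dead cells, and polyadenylated RNA was sequenced after amplification of the cDNA. The driver acts in clock neurons of several classes, which the sort did not separate, and the labels name no timed start of the knockdown. Prp3 encodes a protein of the spliceosome.

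The gene counts of a library came to between 24477244 and 32551739, with 9963 to 10649 genes detected. Values in CPM are counts scaled to a common library total, with TMM factors. Prp3 itself had 27, 28.3 and 10.8 CPM in the Prp3-RNAi libraries, against 45.6, 68.8 and 29.4 CPM in the control libraries (log2 fold change -1.16, SE 0.24, edgeR adjusted p = 0.384). The groups did not overlap for it, and it was lower in each pair of libraries with the same number. Over all 8708 genes tested, edgeR's quasi-likelihood test called 0 at a Benjamini-Hochberg adjusted p under 0.05, which is 0% of them. At an unadjusted p under 0.05 it gave 869, and among other tools DESeq2 called 380 and limma-voom 4. Neuron markers, 5 of 5 detected, summed to between 4094 and 5156 CPM in Prp3-RNAi libraries and between 4317 and 5204 CPM in control libraries. Clock neuron markers, 7 of 7 detected, ranged from 1181 to 21041 CPM in Prp3-RNAi libraries and from 3862 to 18361 CPM in control libraries, through the peptide gene Pdf, which had 302, 155 and 19961 CPM in Prp3-RNAi libraries and 15942, 2566 and 17385 CPM in control libraries. Among the same markers, the cryptochrome gene cry had 85.2, 81.1 and 90.9 CPM in Prp3-RNAi libraries and 222, 190 and 105 CPM in control libraries. The clock repressor gene vri had 165, 238 and 227 CPM in Prp3-RNAi libraries and 322, 256 and 251 CPM in control libraries. Both were lower without overlap, as were 5.34% of all genes tested. Of the 7 clock neuron markers, 4 had a log2 fold change below 0 and 3 above. Those above were cyc at 0.30, Clk at 0.21 and per at 0.04, and the groups overlapped for each. Glia markers, 6 of 6 detected, summed to between 187 and 384 CPM in Prp3-RNAi libraries and between 168 and 565 CPM in control libraries. Photoreceptor markers, 5 of 5 detected, summed to between 236 and 396 CPM in Prp3-RNAi libraries and between 275 and 359 CPM in control libraries. Fat body markers, 3 of 4 detected, summed to 80.1 to 101 CPM in Prp3-RNAi libraries, against 104 to 129 CPM in control libraries, nearly all of it FASN1, with Lsp2 at 0. Muscle markers, 4 of 5 detected, summed to 0.381 to 1.56 CPM in Prp3-RNAi libraries and 0.46 to 2.86 CPM in control libraries, with Act88F at 0. Hemocyte markers, 3 of 3 detected, summed to 0 to 0.0342 CPM in Prp3-RNAi libraries. In control libraries 1 to 3 they summed to 0.188, 1.27 and 79.3 CPM, so nearly all of it was in control library 3. Of 5 testis markers, Mst87F, dj, aly and bam were at 0 in all libraries, and can was at 0 in Prp3-RNAi libraries and at 0.439 to 4.85 CPM in control libraries. The part of these differences in the results below was not tested. In libraries of many cells, fewer cells of a type and less RNA per cell cannot be told apart.

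Levels of different genes were compared per length, as counts per kilobase of annotated exon scaled to one common total over the 17198 genes with a length. On this scale the ATP synthase led the nuclear genes. ATPsynC, the subunit of the rotating c ring in the membrane (chromosome 3R, bases 31216145 to 31219630, minus strand, dm6), had the highest level per length of all these genes, at 5598 as the mean of the 6 libraries, and ranked 7 among all genes. It had 6466, 4951 and 4868 in Prp3-RNAi libraries, against 5558, 5727 and 6020 in control libraries. ATPsynbeta, the catalytic subunit (chromosome 4, bases 1031484 to 1034917, plus strand), followed among nuclear genes with a mean level per length of 3761. The ratio of ATPsynC to ATPsynbeta per length lay between 1.4 and 1.62 in all 6 libraries, so the order of these 2 genes held in each.

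The complexes stood at different levels per length. The figures for a complex leave out the copies with an L suffix and the genes that share over 50% of their exon bases with another gene. The median level per length of the nuclear genes was 2027 for complex V (11 genes) and 1536 for complex IV (7 genes). Complex I had a median of 562 over 33 genes, complex III 330 over 5 genes and complex II 303 over 5 genes. Within a complex the spread was wide: in complex I the level per length ran from 1.04 for ND-B8 to 1305 for ND-PDSW, both accessory subunits. Its middle range was 349 to 787. The low end rests on few counts, since ND-B8 had 0, 1 and 13 in Prp3-RNAi libraries and 1, 9 and 18 in control libraries. Whether reads of ND-B8 were missed in counting was not tested. SdhC and SdhD, the membrane anchors of complex II, stood at 1299 and 924 per length, and the catalytic SdhA and the iron-sulfur subunit SdhB at 303 and 75.7. For complex V the median per length averaged 2102 ± 438 in Prp3-RNAi libraries and 1944 ± 60.2 in control libraries (SD, n = 3 each), so the groups differed by less than the spread within Prp3-RNAi libraries.

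**Figure D1:**
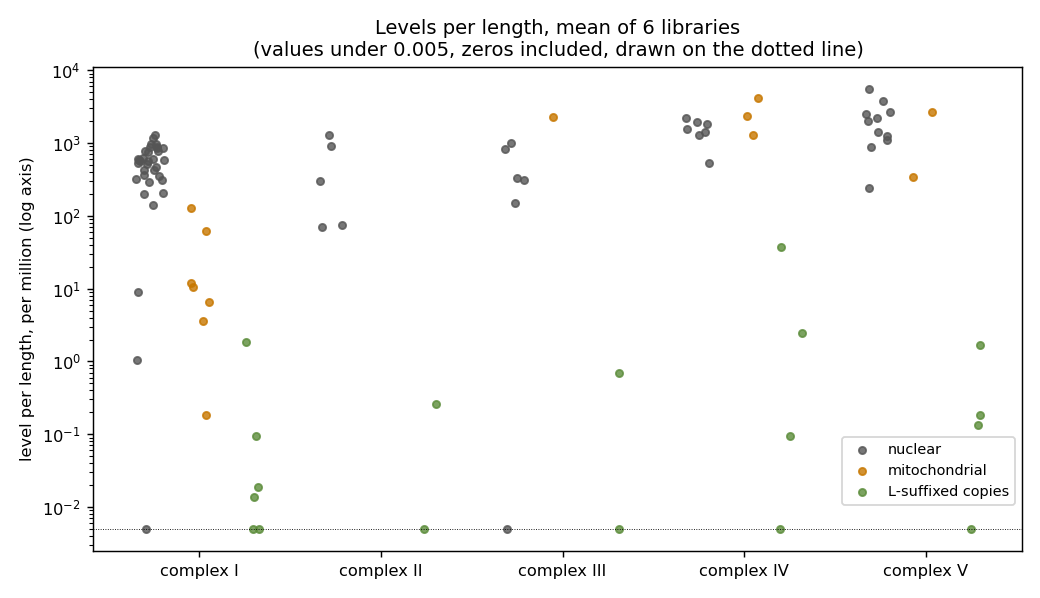
Level per length of each gene as the mean of 6 libraries (vertical log axis, counts per kilobase of exon on a common total), by complex, with nuclear genes in grey, mitochondrial genes in orange and L-suffixed copies in green. Mitochondrial genes of complex I lie between 0.186 and 129, below most nuclear genes of that complex, while CYTB, COX2 and ATP6 stand above the nuclear median of their complex and ATP8, at 340, below it.

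The mitochondrial genes split by complex. COX2, a core subunit of complex IV that takes electrons from cytochrome c (mitochondrial genome, bases 3083 to 3767, plus strand), had a mean level per length of 4184. ATP6, the membrane subunit of the ATP synthase through which protons pass, had 2645. COX1, the catalytic subunit of complex IV, had 2388, CYTB, the cytochrome b of complex III, had 2254, and COX3 had 1300. Across libraries, the levels per length of ATP6 (1796 to 3868), COX1 (1573 to 3494) and CYTB (1624 to 3143) overlapped across libraries. Within each of the 6 libraries ATP6 stood above CYTB. COX1 stood below COX2 in each library, at 0.531 to 0.694 of its level per length.

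The mitochondrial subunits of complex I, which form its proton-pumping membrane arm with nuclear subunits, were far lower. ND1 had a mean level per length of 129, ND4 61, ND5 12, ND3 10.4, ND6 6.53, ND2 3.55 and ND4L 0.186. COX1 was 478 to 1066 times ND2 per length over the 6 libraries, although ND2 (bases 240 to 1263) and COX1 (bases 1474 to 3009) are neighbours on the plus strand. ND6 (bases 9971 to 10495) and CYTB (bases 10499 to 11635), also neighbours on that strand, stood at 6.53 and 2254 per length. Where the minus strand holds ND5 next to ND4, the ratio of ND4 to ND5 per length was 4.67 to 5.83. Together the 7 ND genes gave 1.75% to 2.27% of the counts of the mitochondrial genes, and COX1, COX2, CYTB, ATP6 and COX3 gave 97.3% to 97.9%. ATP8, at 340 per length, is 162 bases long and shares 7 of them with ATP6, and ND4L shares 1 base with ND4. A read over both genes of such a pair can be counted for neither, and how far this lowers ATP8 and ND4L was not tested. The libraries were made from polyadenylated RNA, so these are levels of tailed RNA, and any difference in tailing between transcripts enters them.

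Both genomes also met in single complexes. COX1 per length was between 0.863 and 1.46 times the nuclear COX4 in the 6 libraries, on either side of equality. CYTB was 1.31 to 3.05 times UQCR-C1, a nuclear core protein of complex III, per length, and COX2 was 1.66 to 3.1 times the nuclear COX5A. In complex I, ND-75, the large iron-sulfur subunit, has the lowest level per length of the 7 nuclear core subunits, at 143, against a median of 748 for them. The mitochondrial ND2 per length was 0.0111 to 0.0646 of ND-75, and ND1 was 0.43 to 1.76 times ND-75.

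Of the 94 genes, 76 passed the filter on low counts and were tested, 64 nuclear and 12 mitochondrial. The 18 others were 14 copies with an L suffix, ND4L, ND-B8, ND-MNLL and UQCR-14. No count was found for 8 genes. ND-MNLL and UQCR-14 were among these, and each shares 100% of its exon bases with another annotated gene, so a count of 0 says nothing of their level. In all, 40 of the 94 genes share at least 1 exon base with another gene. Among the tested ones this reached 40.5% of the exon bases for UQCR-6.4, 35.6% for ATPsyndelta, 35% for ND-MWFE and 26.1% for ND-B22, and the counts of these 4 are less certain.

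Between Prp3-RNAi and control libraries, most nuclear genes lay close to no change. Log2 fold changes of the 64 tested ran from -2.13 (COX4L) to 3.76 (ATPsynepsilonL), both copies with a mean under 1 CPM, and 12.5% lay beyond 0.25. edgeR called 0 of the 64 nuclear genes, against 0% of all genes tested. At an unadjusted p under 0.05, 0 were higher and 2 lower in Prp3-RNAi libraries, which is 3.12%, against 9.98% of all genes tested (4.71% higher and 5.27% lower). DESeq2 called 1 nuclear gene and limma-voom 0. The median log2 fold change of the nuclear genes was -0.03, with 23 above 0 and 41 below, and the median of all genes was 0.01. The nuclear median was -0.14 without pair 1 and 0.02 without pair 2 or pair 3, so its sign turned on the pairs.

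Genes above a floor of expression were also set against each other, without matching their levels above it. Of the nuclear genes, 53 had a mean of 100 CPM or more, and their log2 fold changes ran from -0.44 to 0.22. Only 2 of them, 3.77%, lay beyond 0.25 in either direction, against 28.4% of the 1973 genes at 100 CPM or more and 54.9% of all tested. The median log2 fold change was -0.03 in the 53 genes, with 19 above 0 and 34 below. In the 1973 it was -0.06, with 799 above 0 and 1174 below. An edgeR unadjusted p under 0.05 was found for 3.77% of the 53 and 17.7% of the 1973. The median size of the log2 fold change was 0.07 in these 53 genes and 0.16 in the 1973. Their spread within a group was less far below that of the others, with a median coefficient of variation of 14.2% against 16.6%. No test was made of this difference.

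By complex, the medians of the nuclear genes lay between -0.06 and 0.02. A typical standard error of 1 gene was 0.13, which does not measure the spread of such a median. The median log2 fold change was -0.06 in complex I (33 genes tested), -0.02 in complex II (5), 0.02 in complex III (5), -0.04 in complex IV (9) and -0.01 in complex V (12). In each complex most genes lay on the same side within pair 1 and on the other side within pairs 2 and 3. Pair medians for complex IV were 0.25, -0.10 and -0.22, and for complex V 0.23, -0.08 and -0.20. Complex I had pair medians of 0.14, -0.14 and -0.16. Over all 64 nuclear genes, 57 were above 0 in pair 1, 11 in pair 2 and 8 in pair 3.

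**Figure D2:**
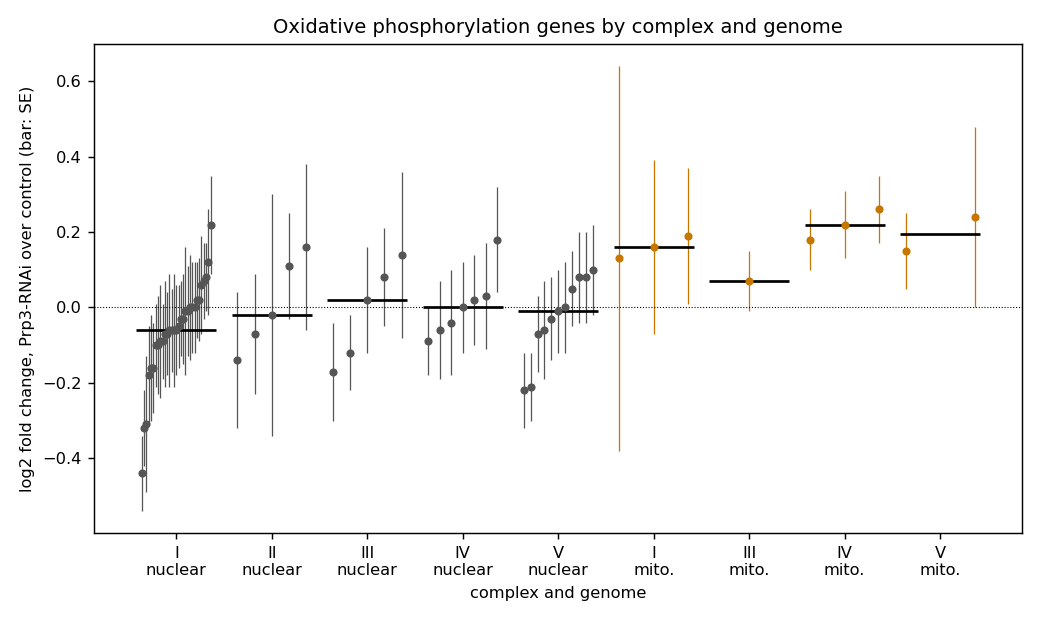
Log2 fold change of Prp3-RNAi over control libraries (vertical axis) for each tested gene with its SE as a bar, grouped by complex and genome, the black line being the median of the genes drawn. L-suffixed copies are left out whatever their SE, and ND2, ND3, ND6 and ND-MWFE because of their large SE. The nuclear genes lie on both sides of 0 and the mitochondrial genes drawn lie above it.

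Complex I held both nuclear genes with an unadjusted p under 0.05. ND-B14.7, an accessory subunit of the membrane arm (ortholog of human NDUFA11, on chromosome 2R), had 196, 159 and 198 CPM in Prp3-RNAi libraries, against 251, 224 and 273 CPM in control libraries. All Prp3-RNAi libraries lay below all control libraries, and it was the only nuclear gene whose groups did not overlap (5.34% of all genes tested were lower in this way and 6.27% higher). Its log2 fold change was -0.44 (SE 0.10), with -0.36, -0.49 and -0.46 in the pairs, and an edgeR unadjusted p of 0.00677 and adjusted p = 0.417. DESeq2 gave it an adjusted p of 0.0143 at a log2 fold change of -0.45, the lowest of the 11 alternatives, whose adjusted p ran up to 0.969. ND-75, the ortholog of human NDUFS1 (chromosome X, bases 8248651 to 8251687, minus strand), had 177, 213 and 117 CPM in Prp3-RNAi libraries, against 228, 271 and 138 CPM in control libraries. The groups overlapped, and ND-75 was lower in the Prp3-RNAi library of each pair, with log2 differences of -0.36, -0.35 and -0.23 (log2 fold change -0.32, SE 0.10, edgeR adjusted p = 0.462, 0.154 to 0.999 over the alternatives).

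The other nuclear genes of complex I at 100 CPM or more lay nearer to 0. ND-49, a core subunit near the quinone site and the most abundant nuclear gene of complex I in CPM, had 851, 785 and 695 CPM in Prp3-RNAi libraries and 743, 803 and 827 CPM in control libraries (log2 fold change -0.03, SE 0.12). The groups overlapped. The 7 nuclear core subunits include those that carry the flavin and the iron-sulfur clusters or bind the quinone. Of these 7, 6 were below 0, with a median log2 fold change of -0.06 and ND-75 as the only one beyond 0.25. This grouping was made with the values known. ND-MWFE, an accessory subunit, had the highest log2 fold change of the nuclear genes of complex I, 0.38, but at 4.95, 3.3 and 4.96 CPM in Prp3-RNAi libraries and 3.04, 2.94 and 4.12 CPM in control libraries its SE was 0.81. No nuclear gene of complex I other than ND-B14.7 had groups that did not overlap.

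In complex II, SdhC had 629, 496 and 603 CPM in Prp3-RNAi libraries and 497, 587 and 863 CPM in control libraries (log2 fold change -0.14, SE 0.18). SdhB, which hands electrons on from the flavoprotein, was at the other end, with 50.8, 42.1 and 57.3 CPM in Prp3-RNAi libraries and 50.7, 46.3 and 37.3 CPM in control libraries (log2 fold change 0.16, SE 0.22). The groups overlapped for both, and both changed sign without pair 3, to 0.05 for SdhC and -0.06 for SdhB.

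In complex III, the core proteins were both below 0. UQCR-C1 had 823, 865 and 713 CPM in Prp3-RNAi libraries and 788, 983 and 846 CPM in control libraries (log2 fold change -0.12, SE 0.10). UQCR-C2 had 350, 246 and 206 CPM in Prp3-RNAi libraries and 337, 332 and 228 CPM in control libraries (log2 fold change -0.17, SE 0.13). The small subunit UQCR-6.4 had the highest log2 fold change of complex III, 0.14 (SE 0.22), which was -0.08 without pair 1. The groups overlapped for all 3.

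In complex IV, COX4, its most abundant nuclear subunit in CPM, had 1504, 1060 and 1156 CPM in Prp3-RNAi libraries and 1212, 1091 and 1332 CPM in control libraries (log2 fold change 0.02, SE 0.12; -0.11 without pair 1). COX6B had 685, 521 and 615 CPM in Prp3-RNAi libraries and 481, 504 and 627 CPM in control libraries (log2 fold change 0.18, SE 0.14). Both overlapped between the groups, and COX6B was above 0 in pairs 1 and 2 and at -0.03 in pair 3.

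In complex V, ATPsynC had 5671, 4262 and 5115 CPM in Prp3-RNAi libraries and 5517, 5204 and 6777 CPM in control libraries (log2 fold change -0.22, SE 0.10, edgeR adjusted p = 0.547). ATPsynbeta had 4918, 3900 and 4107 CPM in Prp3-RNAi libraries and 4977, 4571 and 5334 CPM in control libraries (log2 fold change -0.21, SE 0.09, edgeR adjusted p = 0.516). The groups overlapped for both genes. Since these are the nuclear genes with the most counts, their sum was also read as a share of the nuclear counts, a quantity chosen after the values were seen. It was 28.3%, 27.8% and 27.9% in Prp3-RNAi libraries and 31.2%, 29.8% and 31% in control libraries, or 28% ± 0.266 and 30.7% ± 0.74 (SD, n = 3 each). The groups did not overlap in this share, and no test was made of it. The other 9 well-covered ATP synthase genes had log2 fold changes from -0.07 (ATPsynD, a stalk subunit) to 0.10 (ATPsynE, a membrane subunit).

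The mitochondrial genes stood on one side. All 12 tested had a log2 fold change above 0, with a median of 0.19 and a range of 0.07 to 0.90, and 50.9% of all genes tested were above 0. They are read from shared precursors in the same 6 libraries, so they are not 12 independent observations. edgeR called 0 of the 12 and DESeq2 and limma-voom also 0. At an unadjusted p under 0.05, edgeR gave 1, COX2, which is 8.33% of them against 9.98% of all genes tested. The groups overlapped for all but ND2. Of the 12, 7 were higher in all 3 pairs, as were 17.5% of all genes tested. Pair medians over the 12 genes were 0.05, 0.10 and 0.48, the largest in pair 3. The median log2 fold change of the 12 was 0.08 without pair 3, 0.30 without pair 1 and 0.26 without pair 2. For COX1, COX2, COX3, CYTB and ATP6, which gave 97.3% to 97.9% of the mitochondrial counts, pair medians were 0.12, 0.21 and 0.27.

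**Figure D3:**
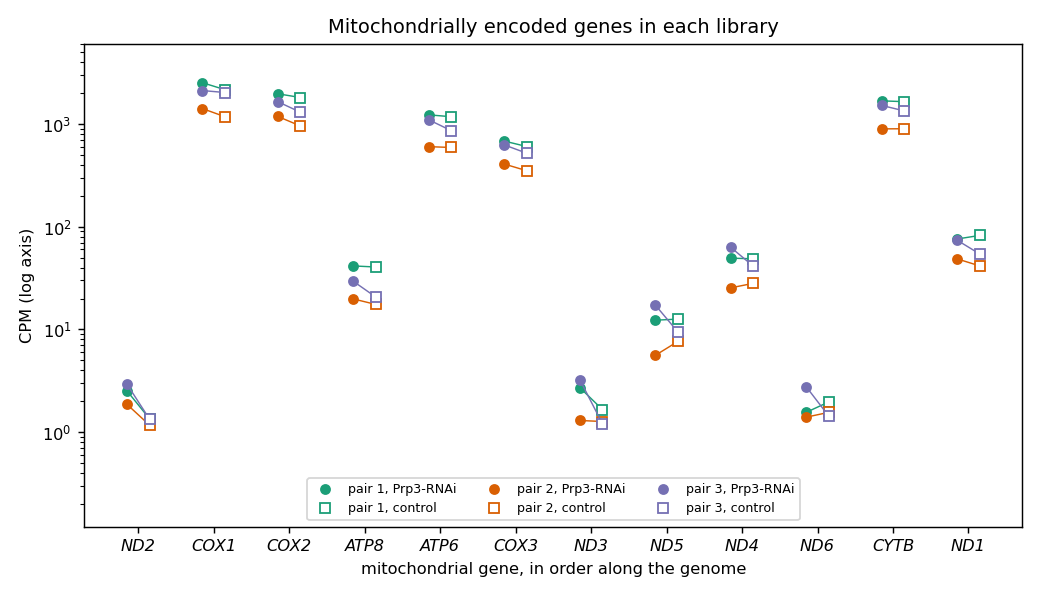
CPM of 12 mitochondrial genes (vertical log axis) in the Prp3-RNAi library (filled circles) and the control library (open squares) of each pair, joined by lines, with genes in their order along the genome. ND4L is not drawn. Pair 2 is lowest for COX1, COX2, COX3, CYTB and ATP6 in both groups, and for these 5 genes pair 2 lies farther from pairs 1 and 3 than the groups lie apart within a pair.

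Complex IV genes were the steadiest of the mitochondrial set. COX2 had 1965, 1182 and 1645 CPM in Prp3-RNAi libraries and 1808, 955 and 1299 CPM in control libraries (log2 fold change 0.26, SE 0.09, edgeR adjusted p = 0.468, 0.0568 to 0.999 over the alternatives). COX1 had 2520, 1411 and 2113 CPM in Prp3-RNAi libraries and 2154, 1175 and 2022 CPM in control libraries (log2 fold change 0.18, SE 0.08, edgeR adjusted p = 0.54). COX3 had 681, 407 and 625 CPM in Prp3-RNAi libraries and 602, 350 and 518 CPM in control libraries (log2 fold change 0.22, SE 0.09, edgeR adjusted p = 0.516). Each of these 3 genes was higher in every pair, by 0.06 to 0.34 on the log2 scale. The groups overlapped for all 3, and the libraries of pair 2 were the lowest in both groups. The median log2 fold change of the 3 was 0.22 and stayed between 0.21 and 0.26 under all alternatives.

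CYTB of complex III had 1678, 895 and 1514 CPM in Prp3-RNAi libraries and 1647, 898 and 1339 CPM in control libraries, the smallest log2 fold change of the mitochondrial genes, 0.07 (SE 0.08). In complex V, ATP6 had 1226, 601 and 1097 CPM in Prp3-RNAi libraries and 1175, 590 and 858 CPM in control libraries (log2 fold change 0.15, SE 0.10). ATP8, the small partner of ATP6, had 41.5, 19.8 and 29.4 CPM in Prp3-RNAi libraries and 40.5, 17.5 and 20.6 CPM in control libraries (log2 fold change 0.24, SE 0.24). For ATP6 and ATP8 the largest difference was again in pair 3, at 0.35 and 0.51.

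The ND genes of complex I had a median log2 fold change of 0.17 over the 6 tested, which was 0.00 without pair 3. ND2 had 76, 59 and 86 counts in Prp3-RNAi libraries and 43, 33 and 31 counts in control libraries, or 2.53, 1.87 and 2.94 CPM and 1.35, 1.17 and 1.34 CPM. It was the only mitochondrial gene whose groups did not overlap (6.27% of all genes tested were higher in this way), and its log2 fold change of 0.90 had an SE of 1.07 (edgeR adjusted p = 0.827). ND3, with 2.72, 1.3 and 3.25 CPM in Prp3-RNAi libraries and 1.66, 1.27 and 1.21 CPM in control libraries, was at 0.72 (SE 1.10). ND6 had 1.56, 1.4 and 2.77 CPM in Prp3-RNAi libraries and 1.97, 1.56 and 1.43 CPM in control libraries (log2 fold change 0.15, SE 1.12). The minus-strand genes overlapped between the groups as well. ND1 had 75.9, 48.6 and 73.8 CPM in Prp3-RNAi libraries and 82.2, 41.5 and 54.2 CPM in control libraries (log2 fold change 0.19, SE 0.18). ND4 had 49.4, 25.4 and 63 CPM in Prp3-RNAi libraries and 48.7, 28.1 and 41.2 CPM in control libraries (log2 fold change 0.16, SE 0.23). ND5 had 12.3, 5.59 and 17.3 CPM in Prp3-RNAi libraries and 12.6, 7.64 and 9.45 CPM in control libraries (log2 fold change 0.13, SE 0.51). Without pair 3 the log2 fold change was -0.06 for ND4, -0.24 for ND5 and -0.25 for ND6. ND4L had 0.0685 CPM or less in every library.

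Summed over genes, the genomes can be set side by side. Nuclear genes took 3.86%, 3.02% and 3.33% of the gene counts in Prp3-RNAi libraries and 3.29%, 3.29% and 3.69% in control libraries, or 3.4% ± 0.425 and 3.42% ± 0.227 (SD, n = 3 each). Mitochondrial genes took 0.852%, 0.473% and 0.724% in Prp3-RNAi libraries and 0.743%, 0.409% and 0.581% in control libraries, or 0.683% ± 0.193 and 0.578% ± 0.167. Both shares overlapped between the groups, and each difference of means was smaller than the SD within a group. Within pairs, the mitochondrial share in the Prp3-RNAi library was 1.15, 1.16 and 1.25 times that in the control library, and the nuclear share 1.17, 0.917 and 0.903 times. Pair 1 thus had both genomes higher by a like factor, while in pairs 2 and 3 the mitochondrial share was higher and the nuclear share lower.

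Mitochondrial counts as a percentage of nuclear ones were 22.1%, 15.7% and 21.8% in Prp3-RNAi libraries and 22.5%, 12.4% and 15.8% in control libraries. The means were 19.8% ± 3.61 and 16.9% ± 5.16 (SD, n = 3 each), and the groups overlapped. Ratios within pairs were 0.979, 1.26 and 1.38. For complex IV alone, COX1 to COX3 as a percentage of COX4 to COX8 gave 99.9%, 77.8% and 95.7% in Prp3-RNAi libraries and 108%, 61.3% and 73.7% in control libraries, with the same order of pairs. No p is given for these sums, since the genes were chosen as a set.

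**Figure D4:**
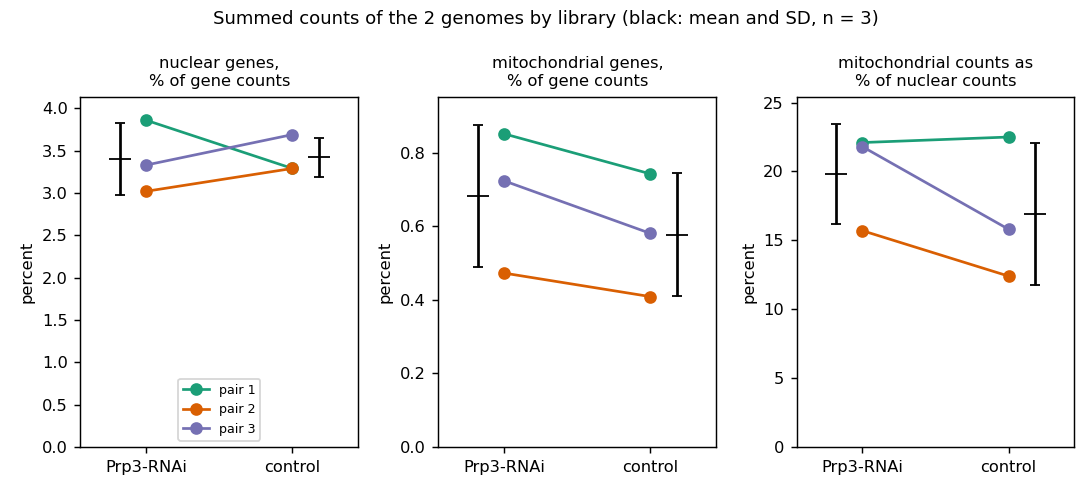
Summed counts of nuclear genes and of mitochondrial genes as a percentage of gene counts, and mitochondrial counts as a percentage of nuclear counts, in Prp3-RNAi and control libraries joined by pair, with the mean and SD of 3 libraries in black. The mitochondrial shares are all lower in control, the nuclear lines cross, mitochondrial over nuclear counts are lower in control in pairs 2 and 3 but not in pair 1, and the SD bars overlap in each panel.

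Libraries of the same group also differed from each other. How this variation compares in size with the difference between groups was not tested. Of the 53 nuclear genes at 100 CPM or more, 36 were lowest in Prp3-RNAi library 2, 25 were highest in control library 3 and 19 were highest in Prp3-RNAi library 1. Counted against each gene's own mean over the 6 libraries, 48, 6 and 31 of the 53 were above it in the Prp3-RNAi libraries and 19, 11 and 46 in the control libraries. The pattern ran through all complexes: none of the 7 genes of complex IV or the 11 of complex V was above its mean in Prp3-RNAi library 2 or in control library 2. The mitochondrial COX genes, CYTB and ATP6 deviated further, with median log2 deviations of 0.46, -0.38 and 0.24 in the Prp3-RNAi libraries and 0.34, -0.58 and 0.00 in the control libraries.

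In pairs 2 and 3 these deviations moved with exon length. Over the 53 genes, Spearman's rho between exon length and the deviation was -0.04, 0.31 and -0.55 in the Prp3-RNAi libraries and 0.29, 0.51 and -0.48 in the control libraries. Over the 1871 genes at 100 CPM or more with a length it was 0.10, 0.48 and -0.28 in Prp3-RNAi libraries and 0.01, 0.27 and -0.55 in control libraries, so the libraries of pair 2 were positive and those of pair 3 negative in both sets of genes. Genes share their library, and these values are descriptions. The median log2 fold change was 0.00 for the 33 nuclear genes with under 1000 exon bases, -0.01 for the 8 with at least 1000 but under 1500 and -0.14 for the 12 with 1500 or more. Over all genes at 100 CPM or more these medians were -0.09, -0.11 and -0.04. Spearman's rho between exon length and the log2 fold change was -0.35 over the 53 nuclear genes. Over the 1871 genes it had the opposite sign, at 0.26. ND-75, with 2634 exon bases, ATPsynbeta, with 2386, and ATPsynC, with 1868, belong to the long class, and ND-B14.7, with 712, to the short one. The part of exon length in their differences was not tested.

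**Figure D5:**
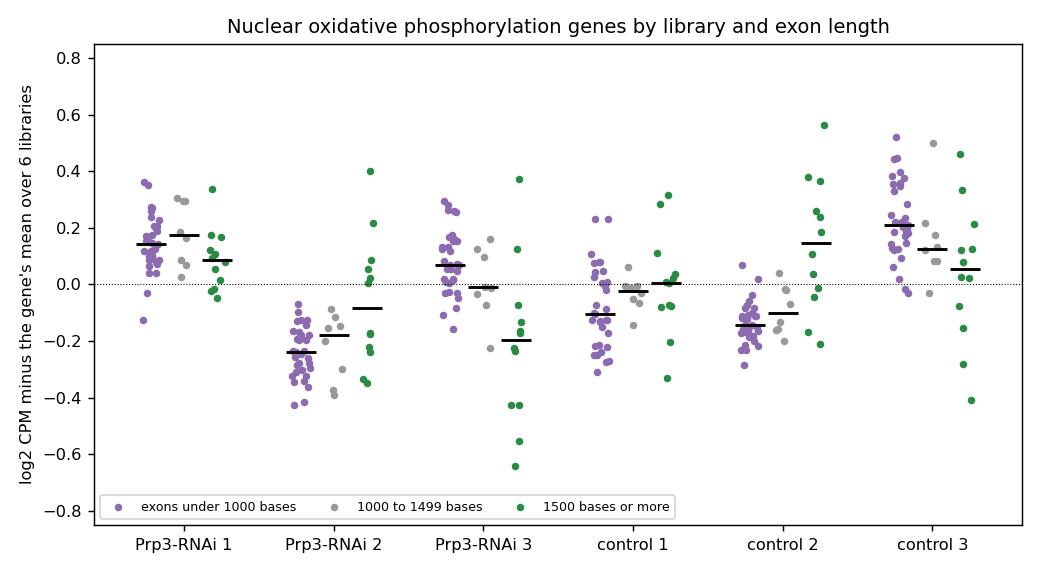
Deviation of log2 CPM from the gene's own mean over 6 libraries (vertical axis) for the 53 nuclear genes at 100 CPM or more in each library, by exon length class, with class medians as black lines. Short genes lie lowest in Prp3-RNAi library 2 (median -0.24) and highest in control library 3 (median 0.21), and long genes lie lowest in Prp3-RNAi library 3 (median -0.20).

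Many nuclear genes have a copy whose symbol adds L, L1 or L2, and the rule took in 18 of these. Of the 18, 16 had a mean under 1 CPM and 6 had no count. COX5BL is 1 of these 6 and lies wholly within the exons of another gene, so its count of 0 says nothing of its level. COX7AL was the most abundant, with 11.8, 6.89 and 11.1 CPM in Prp3-RNAi libraries and 11.8, 11.6 and 16.2 CPM in control libraries, which over all libraries was 1.44% of the counts of COX7A. It had a log2 fold change of -0.44 (SE 0.44), and COX7A, with a mean of 794 CPM, one of -0.09 (SE 0.09). ND-51L1 had 0.598, 1.14 and 0.787 CPM in Prp3-RNAi libraries and 2.16, 6.3 and 0.91 CPM in control libraries (log2 fold change -1.53, SE 1.20), and its counts were 0.433% of those of ND-51 (log2 fold change -0.09, SE 0.10). COX4L had 1, 40 and 1 counts in Prp3-RNAi libraries and 2, 85 and 21 counts in control libraries, with most of its counts in the libraries of pair 2, and reached 0.0705% of the counts of COX4. ATPsynepsilonL, named for the epsilon subunit that the gene sun encodes, had 15, 21 and 5 counts in Prp3-RNAi libraries and 0, 0 and 30 in control libraries. The groups overlapped for these 4 copies, which were the only ones tested, and edgeR called 0 of them and gave 0 an unadjusted p under 0.05. Reads that fit a copy and its partner equally can be missing from both, which was not tested.

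Genes around the pathway were read in the same fit, and edgeR called 0 in any list. Of 9 subunits with other names, 1 had an unadjusted p under 0.05, against 9.98% of all genes tested, and 0 had one with no replicate block or without pair 2 or pair 3. This was Cyt-c-p, the cytochrome c that carries electrons to complex IV, with 1272, 1057 and 1193 CPM in Prp3-RNAi libraries and 1362, 1313 and 1648 CPM in control libraries (log2 fold change -0.29, SE 0.10, edgeR adjusted p = 0.47, 0.0425 with DESeq2 to 0.999 over the alternatives). The groups did not overlap for it, as for 5.34% of all genes tested in this direction. The median of that list was 0.05. Among 5 assembly factors and 5 carriers none had an unadjusted p under 0.05, and the medians were 0.01 and -0.11.

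Of 13 tricarboxylic acid cycle genes, which feed electrons to complexes I and II, 1 was higher and 2 were lower at an unadjusted p under 0.05 (4.71% and 5.27% of all genes tested), and the median was -0.03. The count of 3 was 0 with no replicate block or without pair 3, and 1 without pair 1. Nc73EF, a subunit of 2-oxoglutarate dehydrogenase, had a log2 fold change of 0.47 (SE 0.18), the aconitase gene mAcon1 -0.39 (SE 0.14) and the fumarase gene Fum1 -0.44 (SE 0.15). Exons of Fum1 overlap those of ND-ASHI, a subunit of complex I, which had a log2 fold change of -0.05. Of 15 genes for mitochondrial DNA and RNA, 13 were tested, with a median of 0.33 and a median SE of 0.32. MTPAP, the poly(A) polymerase of mitochondria, was the 1 with an unadjusted p under 0.05, which 9.98% of all genes tested had, and the count was 0 with no replicate block, with limma-voom and without pair 1. It had 17.2, 16.3 and 11.1 CPM in Prp3-RNAi libraries and 0.376, 10.7 and 0.78 CPM in control libraries (log2 fold change 3.37, SE 1.22, edgeR adjusted p = 0.472, 0.00944 with DESeq2 to 0.999 over the alternatives). Over the alternatives its log2 fold change ran from 1.91, with no replicate block, to 4.66, without pair 2, and it was 2.17 without pair 1. The groups did not overlap for MTPAP, and its control libraries differed among themselves far more than its Prp3-RNAi libraries. Of the 13 genes tested, 3 were higher without overlap, as were 6.27% of all genes tested. The others were mtTFB2 (log2 fold change 0.33, SE 0.25) and mTTF (log2 fold change 0.62, SE 0.31).

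Regulators of mitochondrial biogenesis, 6 genes, had a median of 0.01 and none with an unadjusted p under 0.05. For glycolysis, the route to ATP outside the mitochondrion, 9 of 12 genes were below 0, the median log2 fold change was -0.13, and only Gapdh1 had an unadjusted p under 0.05 (log2 fold change -0.31, SE 0.11, edgeR adjusted p = 0.477), against 9.98% of all genes tested. That count was 0 with no replicate block or without pair 2 or pair 3, and 3 with DESeq2, with limma-voom and without pair 1.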

How the data were processed

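RNA sequencing counts of 3 Prp3-RNAi and 3 control libraries were used. The deposited files hold raw counts of reads by gene, unstranded and by strand, judged from their values and layout, and the authors had not normalized them. The submitters' processing notes name Trim Galore 0.6.7, STAR 2.7.0a and the build dm6 without roles; filters and annotation are not given in the sources used here. The names of the files of both groups carry NUC, which the labels do not explain; the protocol describes sorted cells. Had nuclei been read, counts of mitochondrial genes would not stand for whole cells, and which was read was not tested. The strand columns each held about the same counts (50% to 50.1% forward), so the unstranded count was used, and reads of overlapping genes were not separated. Between 18.5% and 24.4% of reads stood in lines without a gene and were left out.

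Differences were tested with edgeR 4.0.16 (two-sided quasi-likelihood test, glmQLFit and glmQLFTest, run in R 4.3.3) on the deposited counts, with TMM scaling, filterByExpr (min.count 10, min.total.count 15) and Benjamini-Hochberg adjustment over 8708 genes; a gene was called at an adjusted p under 0.05. The SE is the size of the log2 fold change over the square root of F. Differences within pairs are of log2 CPM with a prior count of 2. The replicate number was a block, because the control titles name the paired Prp3-RNAi library, though not what a pair shares. As a check, deviations from group means correlated at 0.0458, 0.266 and 0.236 for libraries of the same number and at -0.252 to 0.0203 for others. Pair 1, at 0.0458, was thus little above the highest of the others. Deviations within a group sum to 0 for each gene, so these values depend on each other. The labels do not say that replicates came from separate flies or days, so p-values measure the spread between these libraries, which may be technical.

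Levels per length divide counts by the union of exons in the Ensembl BDGP6.54 annotation, in dm6 coordinates, matched by gene ID for 17198 genes (95.2% to 95.7% of counts). Named were all mitochondrial genes, nuclear genes with an unadjusted p under 0.05, per complex the genes with the highest and lowest log2 fold change and the highest CPM, the 3 most abundant copies, and list genes with an unadjusted p under 0.05; ATPsynbeta and the genes given for their level per length or exon overlap were added after their values were seen. Copies ending in L1 or L2 were counted with those ending in L. The genes and lists were chosen with earlier results of these data known. Alternatives were 8 settings of block, scaling, filter and tool (DESeq2 1.42.0, limma-voom of limma 3.58.1) and leaving out each of the 3 pairs. Promoter sequences were not analysed here.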

Additional observations from a re-analysis of the deposited data

Results flagged for a closer look

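For 3 quantities outside the oxidative phosphorylation genes, the Prp3-RNAi mean was above the highest control library. Unmapped reads averaged 5.41% ± 1.04 of reads in Prp3-RNAi libraries and 4.25% ± 0.569 in control libraries, whose highest value was 4.72%. Reads outside any gene averaged 3.67% ± 0.142 in Prp3-RNAi libraries and 3.14% ± 0.415 in control libraries, with a highest value of 3.55%. The mitochondrial ribosomal RNA genes averaged 71.1 ± 29.1 CPM of gene counts in Prp3-RNAi libraries and 53 ± 9.31 in control libraries, with a highest value of 59.2 (SD, n = 3 each). By library they had 58.5, 50.4 and 104 in Prp3-RNAi libraries and 57.5, 42.3 and 59.2 in control libraries, so the mean rests on Prp3-RNAi library 3. No test was made of these percentages or of the sum over the ribosomal RNA genes.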

How the results depend on the processing

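No setting but DESeq2 called a gene of either genome. Over all genes, the number called was 8 with no replicate block, 11 with a filter of at least 1 count, 4 with a filter of 50 counts, 380 with DESeq2, 4 with limma-voom and 0 to 4 when a pair was left out. The number at an unadjusted p under 0.05 was 421 with no replicate block and 529 to 756 with a pair left out. DESeq2 called 1 nuclear gene, ND-B14.7, and also Prp3 (log2 fold change -1.17, adjusted p 0.00849). At an unadjusted p under 0.05 there were 1 nuclear and 0 mitochondrial genes with no replicate block, 4 and 3 with DESeq2, 4 and 3 with limma-voom, and 0 to 6 and 0 to 1 with a pair left out. The nuclear share differed by -0.0214 percentage points, and by -0.314 to 0.146 with a pair left out; the mitochondrial share differed by 0.105, and by 0.0867 to 0.126. The sign of single genes was followed over the alternatives only for those named by rule, so other genes may have changed sign too. Without replicate 3, the log2 fold change changed sign for ND4 (-0.06, highest 0.32 with another pair left out), ND5 (-0.24, highest 0.42) and ND6 (-0.25, highest 0.41). It also did so for ND-49 (0.08, lowest -0.13), SdhB (-0.06, highest 0.32) and SdhC (0.05, lowest -0.37). Without replicate 1 it changed sign for UQCR-6.4 (-0.08, highest 0.28) and COX4 (-0.11, highest 0.14). The cause was not tested. The mitochondrial median stayed between 0.17 and 0.21 under the settings of block, scaling, filter and tool, and these moved the median of all genes by at most 0.03. With 3 pairs and low input, genes at a few CPM had an SE near 1, which limits ND2, ND3, ND6 and the L-suffixed copies.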
